A study of Mus musculus with 6 samples.

Results

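The IFIT family (interferon-induced proteins with tetratricopeptide repeats) was examined in RNA-Seq of bone marrow-derived macrophages (BMDM), which are macrophages grown in culture from mouse bone marrow. Members were the rows of the count table whose symbol is *Ifit1*, *Ifit2*, *Ifit3*, *Ifit3b*, *Ifit1bl1* or *Ifit1bl2*, which gave 6 of the 55453 genes listed. All 6 were among the 13680 genes with enough counts to be tested. The 3 PP2Ac KO libraries came from LysMcre PP2Ac fl/fl mice, labelled with the genotype PP2A KO. In these mice exon 1 of *Ppp2ca*, which encodes PP2Ac, the catalytic subunit of the phosphatase PP2A, is flanked by loxP sites and Cre is driven by the *Lyz2* (LysM) promoter of the myeloid lineage. The 3 PP2Ac WT libraries came from wild-type mice. Libraries with Cre alone were not analysed here, so an effect of Cre cannot be told apart from the deletion. In the study's methods the LysMcre PP2Ac fl/fl mice came from the University of Michigan and the wild-type mice from The Jackson Laboratory. An effect of the source of the mice therefore cannot be told apart from the deletion either. Both groups are of the C57BL/6 strain, and the labels give no age and no treatment. The study's methods describe treatment of BMDM of both genotypes with cGAMP, an agonist of STING, for RNA-Seq, and all libraries were taken as treated. There were therefore no untreated libraries, and induction by cGAMP could not be measured. The labels do not say whether the libraries of a genotype came from separate mice, so the p-values measure the spread between libraries, which may be technical.

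IFIT genes are classical interferon-stimulated genes (ISGs). Type I interferon binds the receptor IFNAR1/IFNAR2, which signals to transcription factors such as STAT2 and IRF9 that act at interferon-stimulated response elements (ISREs) in promoters. IRF3, activated through STING and TBK1 or through MAVS, can bind similar elements and induce some of these genes directly. IFIT proteins bind RNA and other IFIT proteins. IFIT1 binds viral mRNA caps that lack 2'-O methylation of the first nucleotide and blocks their translation, IFIT2 and IFIT3 form complexes with IFIT1 in human cells, and IFIT1 and IFIT2 bind subunits of the translation factor eIF3. *Ifit3b* is a close copy of *Ifit3*, and *Ifit1bl1* and *Ifit1bl2* (*Ifit1*-like) are less studied rodent members.

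The members lie in a cluster of 99.3 kb on chromosome 19 (chr19:34550694-34650009, GRCm38, GENCODE M21), in the order *Ifit2* (chr19:34550694-34576419), *Ifit3* (chr19:34583531-34588731), *Ifit1bl1* (chr19:34592891-34601956), *Ifit3b* (chr19:34607970-34613401), *Ifit1bl2* (chr19:34617049-34640743) and *Ifit1* (chr19:34640871-34650009). *Ifit1bl1* and *Ifit1bl2* are on the reverse strand and the others on the forward strand. The coding sequence is almost whole in 1 exon: the last coding exon holds between 97.7% and 99.6% of the coding bases of each full-length transcript. Coding sequences of *Ifit3* and *Ifit3b* were 99.1% identical and those of *Ifit1bl1* and *Ifit1bl2* 87.5%. *Ifit1* was 73.2% identical to *Ifit1bl1* and 72.9% to *Ifit1bl2*, and the remaining pairs ranged from 46.6% to 53.8%. Of the 150-base windows of *Ifit3* transcripts, 18.5% also occur in *Ifit3b*, and no such window of *Ifit2* or *Ifit1bl1* occurs in another member. Shorter windows are shared more often. Of 50-base windows, 51.2% of *Ifit3*, 44.5% of *Ifit3b*, 9.3% of *Ifit1bl2*, 7.1% of *Ifit1* and 6.5% of *Ifit1bl1* occur in another member. None of *Ifit2* does. Reads from shared stretches may have been lost or assigned to either gene. The levels of *Ifit3* and *Ifit3b* are therefore uncertain relative to each other, and to a lesser extent those of *Ifit1*, *Ifit1bl1* and *Ifit1bl2*.

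The promoters are shown because an ISRE is the element through which the interferon pathway acts on ISGs. Promoter sequences came from RefSeq (GRCm38.p6) as windows of 300 bases, from 250 before to 50 after each start site, and all 6 members matched, with 9 windows. The core searched was GAAANNGAAA on either strand. It occurred in 6 of the 9 member windows, compared with 3.44% of all 32851 windows and 41.2% of 51 windows of other antiviral ISGs. By gene it occurred in 5 of the 6 members, in 3.99% of 27025 genes and in 47.5% of 40 other antiviral ISGs. These 40 are the genes with a window in the ISG list given below. Overlapping matches did not occur in the members. At least 2 matches were present in 4 of the 9 member windows, in 0.225% of all windows and in 15.7% of the 51 windows of the other antiviral ISGs. *Ifit2* was the member with no match in its 2 windows, which says only that these letters are not in those windows. The letters TATAAA, the TATA box core, occurred in 3 of the 9 member windows, all of *Ifit1bl1* or *Ifit1bl2*, and in 13.6% of all windows. In the sequences printed here, capitals mark the ISRE cores.
Ifit1 and Ifit1bl2, between their 5′ ends, chr19:34640744-34640870, forward strand: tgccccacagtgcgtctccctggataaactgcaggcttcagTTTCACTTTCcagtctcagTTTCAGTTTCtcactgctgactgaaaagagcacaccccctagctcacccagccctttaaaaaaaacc
Ifit3, chr19:34583363-34583426, forward strand: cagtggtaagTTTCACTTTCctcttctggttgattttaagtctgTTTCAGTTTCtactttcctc
Ifit3b, chr19:34607759-34607822, forward strand: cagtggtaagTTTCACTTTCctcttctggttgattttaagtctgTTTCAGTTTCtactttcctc
Ifit1bl1, chr19:34602039-34602096, reverse strand: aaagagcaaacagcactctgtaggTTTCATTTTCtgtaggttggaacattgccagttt

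*Ifit1* and *Ifit1bl2* are transcribed away from each other, and the 127 bases between their annotated 5′ ends hold both cores, so the same pair of cores lies in the windows of both genes. The cores lie 104 to 76 bases before the start site of *Ifit1* and 70 to 42 bases before that of *Ifit1bl2*. The printed 64-base stretches of *Ifit3* and *Ifit3b* differed at 0 of 64 bases. *Ifit1bl1* has 1 core and TATA box cores in the window of each of its 2 start sites. A match is a description of the letters and was not tested for binding.

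**Figure D1:**
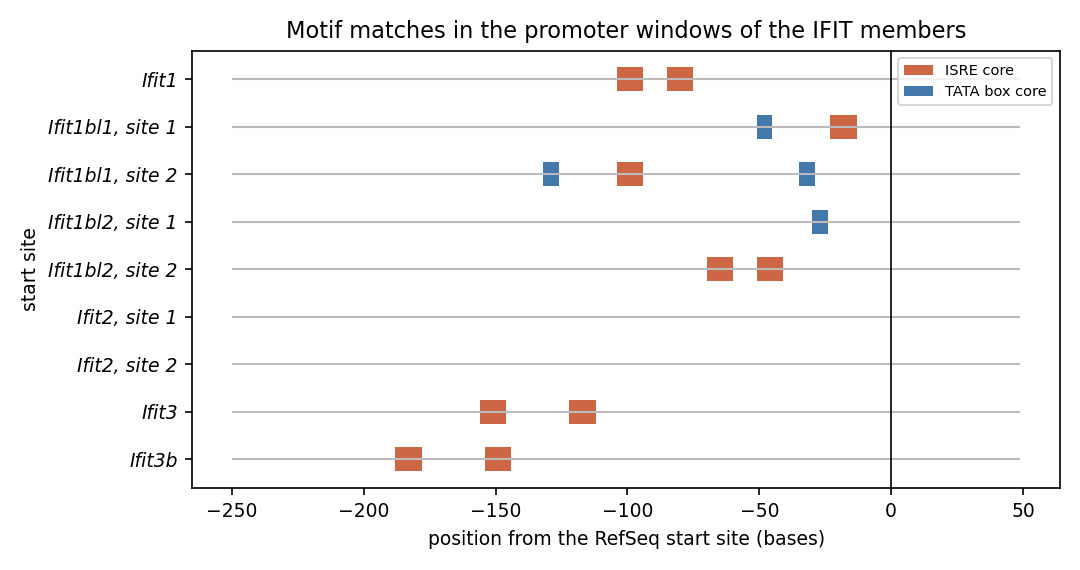
Positions of ISRE cores and TATA box cores in the 9 promoter windows, with the position from the RefSeq start site in bases on the x axis and 1 line per start site. Ifit1, Ifit3, Ifit3b and 1 start site of Ifit1bl2 have 2 ISRE cores each, Ifit1bl1 has 1 at each start site, and Ifit2 has none.

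Library totals ran from 35257156 to 47390899 counts. *Ppp2ca*, the deleted gene, had 1.11, 1.0 and 0.911 CPM (counts relative to the library size as scaled by TMM) in KO libraries 1, 2 and 3 and 214, 205 and 197 CPM in WT libraries 1, 2 and 3. The log2 fold change was -7.67 ± 0.10 (SE), adjusted p = 3.17e-10 by edgeR, so each library matched its label. *Ppp2cb*, the other catalytic subunit gene, had a log2 fold change of 0.03 ± 0.05 and did not pass (adjusted p = 0.731). Of the 13680 genes tested, 2470 were higher in KO and 2604 lower at an adjusted p under 0.05. That split depended on the scaling. TMM factors were 0.910 to 0.937 in KO and 1.05 to 1.1 in WT libraries. Upper-quartile scaling gave 2095 higher and 3356 lower, and library totals alone, an alternative chosen after the data were seen, gave 1503 higher and 6125 lower. Of 10 macrophage markers, 3 were higher and 0 lower (7 higher in the fit blocked by replicate number, and 1 higher and 1 lower with library totals in place of TMM factors). The 3 were *Mertk*, *Fcgr1* and *Spi1*. *Csf1r*, the receptor that macrophages need for growth, was at 3405 ± 137 against 3011 ± 179 CPM. It did not pass (adjusted p = 0.0976), but passed in the blocked fit (adjusted p = 0.00280). *Lyz2*, whose promoter drives Cre, was at 8.86 ± 1.13 against 7.30 ± 0.912 CPM. It too did not pass (adjusted p = 0.104), but passed in the blocked fit (adjusted p = 0.0118). Reads of *Lyz2* can be shared with its close copy *Lyz1*.

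All 6 IFIT members rose in PP2Ac KO BMDM, compared with 18.1% of the genes tested, and 0 fell, compared with 19%. The log2 fold changes ran from 0.51 for *Ifit1* to 1.66 for *Ifit1bl1*, with a median of 1.08 beside a median of -0.02 over all genes. In folds this is 1.42 to 3.17. For each member all 3 KO libraries lay above all 3 WT libraries, which held for 24% of the genes tested. Under the stricter rule of a log2 fold change over 1 and an adjusted p under 0.01, 4 members were called, compared with 3.36% of genes. *Ifit1* and *Ifit1bl2* did not reach it. Without WT library 3 the stricter rule called 2 members, since *Ifit2* and *Ifit3* then had log2 fold changes of 0.96 and 0.96. In bulk RNA, fewer cells that express a gene and less of its RNA per cell cannot be told apart.

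*Ifit1*, the cap-binding member, had 3468, 3184 and 3278 CPM in KO libraries 1 to 3 and 2677, 2122 and 2187 CPM in WT libraries 1 to 3. It had the smallest rise of the family, with the lowest KO library at 1.19 times the highest WT library. The log2 fold change was 0.51 ± 0.10 (adjusted p = 0.00347). *Ifit2* had 5725, 5336 and 5324 CPM in KO and 3414, 2222 and 1907 CPM in WT libraries. The KO libraries were within a narrow range and WT library 1 stood above the other WT libraries. Its log2 fold change was 1.12 ± 0.18 (adjusted p = 0.00148). *Ifit3*, whose human counterpart forms complexes with IFIT1, had 4255, 3887 and 4137 CPM in KO and 2478, 1720.5 and 1743 CPM in WT libraries. The lowest KO library was 1.57 times the highest WT library. Its log2 fold change was 1.05 ± 0.14 (adjusted p = 0.000464).

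*Ifit3b*, whose protein is 98.8% identical to that of *Ifit3*, had 1428, 1278 and 1242 CPM in KO and 706, 532 and 441 CPM in WT libraries. The groups were well apart, with the lowest KO library at 1.76 times the highest WT library. Its log2 fold change was 1.23 ± 0.15 (adjusted p = 0.000360), and with the counts of *Ifit3* and *Ifit3b* summed it was 1.09 ± 0.14. *Ifit1bl1* had 1238, 1126 and 928 CPM in KO and 501, 310.3 and 228 CPM in WT libraries. It had the greatest rise of the 6 and also the greatest spread, with KO library 3 lowest among KO and WT library 1 highest among WT. Its log2 fold change was 1.66 ± 0.25 (adjusted p = 0.000865), which 0.994% of the genes tested exceeded. *Ifit1bl2* had 4.48, 4.73 and 4.94 CPM in KO and 3.68, 2.67 and 2.10 CPM in WT libraries. This member was expressed at a low level, between 88 and 206 counts per library, and WT library 1 came near the KO libraries. Its log2 fold change was 0.73 ± 0.19 (adjusted p = 0.0130). With the counts of *Ifit1*, *Ifit1bl1* and *Ifit1bl2* summed, the log2 fold change was 0.72 ± 0.11.

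**Figure D2:**
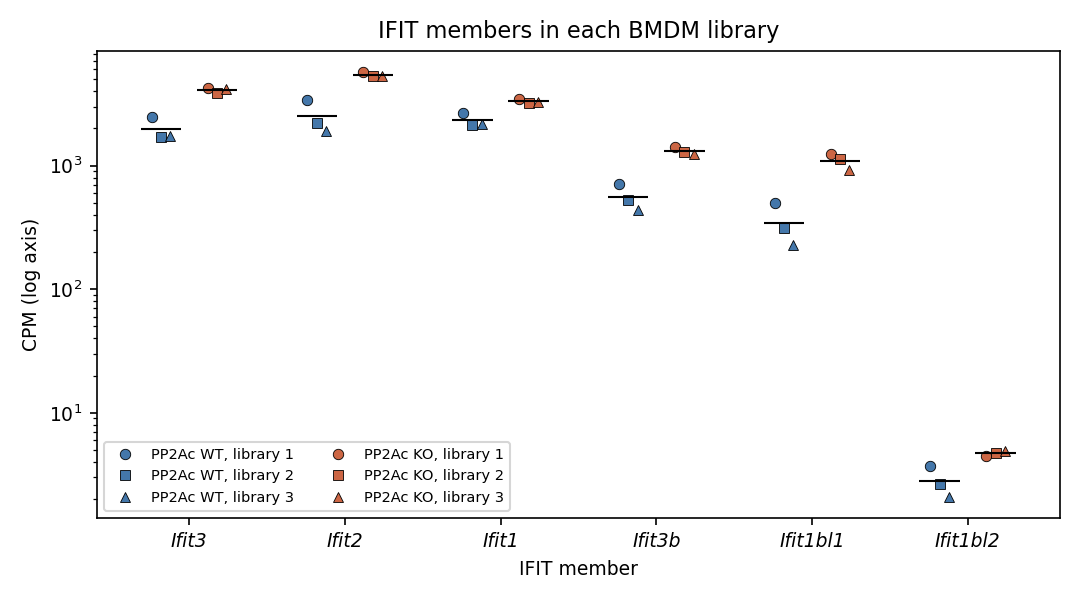
CPM of each IFIT member on a log axis in the 3 PP2Ac WT and 3 PP2Ac KO libraries, with 1 symbol per library number and a line at each group mean. All KO libraries lie above all WT libraries for each of the 6 members, and WT library 1 is the highest WT library each time.

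WT library 1 was the highest WT library for all 6 members, at 1.24 (*Ifit1*) to 1.86 (*Ifit1bl1*) times the mean of the other two. The mean of the KO libraries was still 1.24 (*Ifit1*) to 2.19 (*Ifit1bl1*) times WT library 1. The coefficient of variation was larger among WT than among KO libraries for all 6 members, at 13 to 40.3% in WT and 4.17 to 14.3% in KO, and it was larger in WT for 55.7% of the genes tested. Without WT library 1 the log2 fold changes ran from 0.62 for *Ifit1* to 2.03 for *Ifit1bl1*, and all 6 members still rose. With library totals in place of TMM factors the median of all genes moved to -0.24 and the members' log2 fold changes to 0.29 (*Ifit1*) to 1.45 (*Ifit1bl1*). All 6 members were still called higher. A change of scaling shifts all genes by nearly the same amount, so distances from the median of all genes stay nearly fixed by construction. These distances were 0.53 for *Ifit1* and 1.69 for *Ifit1bl1* under both scalings, which is no test of the scaling.

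In sum the family took 1.42 ± 0.0428% (SD, n = 3) of all counts in KO and 0.830 ± 0.170% in WT libraries. These shares ranged from 1.39 to 1.47% in KO and from 0.714 to 1.03% in WT and did not overlap. Summed CPM was 1.98 times higher in KO on the TMM scale, and the unscaled share was 1.71 times higher. The make-up of the family is given as a description. The ratio of 2 genes did not overlap between genotypes for 52.1% of all pairs of tested genes. With 3 against 3 libraries, no ratio of 2 members could pass the exact permutation test that was used for them. *Ifit1* held 21.7 ± 0.274% of family counts in KO and 30.6 ± 3.12% in WT libraries, without overlap. *Ifit1bl1* held 7.17 ± 0.822% in KO and 4.37 ± 0.812% in WT libraries, again without overlap. *Ifit2* held the most counts in all libraries but WT library 3, where *Ifit1* did. The shares of *Ifit3* overlapped between genotypes, at 26.8 ± 0.825% and 25.7 ± 0.981%.

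**Figure D3:**
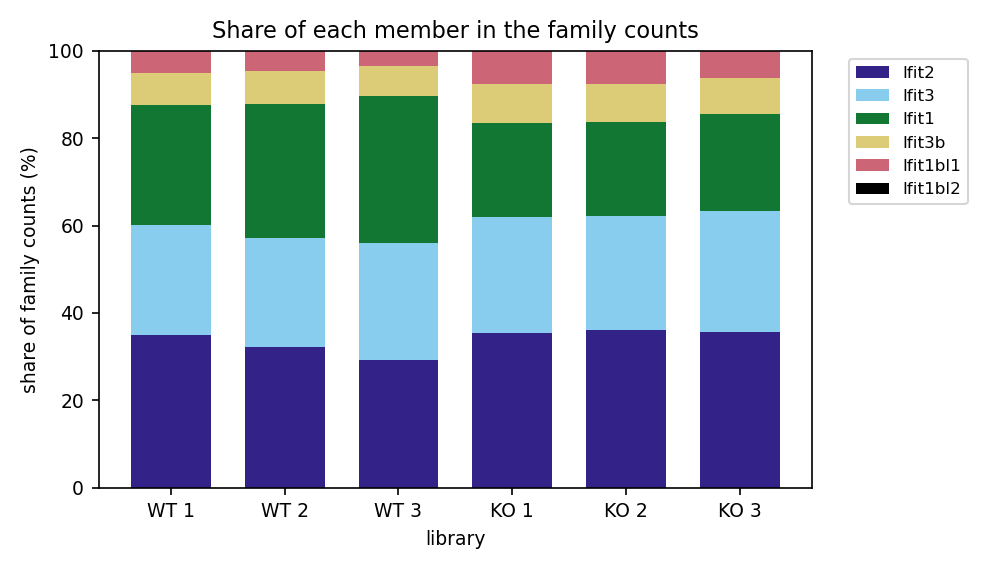
Share of the counts of the IFIT family held by each member, in percent, as stacked bars for the 6 libraries. The Ifit1 share is 21.5 to 22.0% in KO and 27.4 to 33.6% in WT libraries, and Ifit1bl2 is too small to be seen.

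Levels of different members were compared as CPM per kb of exon. In KO libraries the order was *Ifit3* at 2346 ± 108, *Ifit2* at 1391 ± 58.0, *Ifit1* at 1246 ± 54.6, *Ifit3b* at 658 ± 49.2, *Ifit1bl1* at 486 ± 69.6 and *Ifit1bl2* at 1.40 ± 0.0681 CPM per kb. No neighbours in that order overlapped across the KO libraries. In WT libraries *Ifit3* was at 1135 ± 247, *Ifit1* at 877 ± 114, *Ifit2* at 640.3 ± 202, *Ifit3b* at 279.8 ± 67.2, *Ifit1bl1* at 153 ± 61.9 and *Ifit1bl2* at 0.837 ± 0.238 CPM per kb. Across WT libraries *Ifit3* overlapped *Ifit1*, *Ifit1* overlapped *Ifit2*, and *Ifit3b* overlapped *Ifit1bl1* (lowest *Ifit3b* 221, highest *Ifit1bl1* 222), while inside each WT library the order was the one given. Among the 13608 tested genes with a length, *Ifit3* ranked 15 in KO and 24 in WT by mean CPM per kb, and *Ifit1bl1* ranked 77 and 226. *Ifit1bl2* ranked 9150 and 10256. Per kb of the 150-base windows that no other gene shares, *Ifit3* was at 3148 in KO and the order of the members stayed as given in both genotypes.

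Ratios of 2 members in the same library do not depend on the scaling. *Ifit1* over *Ifit2*, as the log2 ratio of counts per kb, was -0.16, -0.18 and -0.14 in KO and 0.21, 0.50 and 0.76 in WT libraries. Per kb, *Ifit2* was thus the higher of the pair in each KO library and *Ifit1* in each WT library. Which member is higher depends on the exon lengths used, since in counts *Ifit2* was also the higher in WT libraries 1 and 2. *Ifit1* over *Ifit1bl1* was 1.37 ± 0.19 in KO and 2.58 ± 0.42 in WT, and *Ifit1* over *Ifit3* was -0.91 ± 0.03 in KO and -0.36 ± 0.12 in WT. Of the 15 pairs of members, 10 had ratios that did not overlap between genotypes, compared with 52.1% of all pairs of tested genes. For these 10 pairs the exact 2-sided permutation test gave p = 0.1, the smallest that 3 against 3 libraries can give, and 0.15 after adjustment over the 15 pairs. No ratio could therefore pass 0.05. *Ifit2* over *Ifit3* (-0.75 ± 0.05 in KO and -0.85 ± 0.17 in WT) and *Ifit2* over *Ifit3b* (1.08 ± 0.05 in KO and 1.18 ± 0.11 in WT) overlapped. *Ifit3* over *Ifit3b* was 1.84 ± 0.09 in KO and 2.03 ± 0.14 in WT and overlapped too.

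The deviations of the members from their group means moved together over the 6 libraries. Pearson's r between members ran from 0.75 (*Ifit1* and *Ifit1bl2*) to 0.98. This is a description over only 6 libraries, and WT library 1 was the highest WT library for all 6 members. The 5 genes outside the family whose log2 CPM was most like the mean of the members were *Irgm1*, *Ifi47*, *Nt5c3*, *P2ry12* and *Hspa5*, with r from 0.9994 to 0.9998. *Irgm1* and *Ifi47* are interferon-inducible GTPases and *Hspa5* encodes a chaperone of the endoplasmic reticulum. *Irgm1* was at 862 ± 23.0 against 532 ± 87.2 CPM. By deviations from the group means, the 5 were *Nmi*, *Mtmr2*, *Asb13*, *Irgm1* and *Hnrnph2*, with r from 0.9987 to 0.9991. *Irgm1* was in both sets. All these genes were picked for the highest r among the genes tested, so their r is no test. *Mtmr2*, picked by deviations, had a log2 fold change of 0.06 ± 0.06 between genotypes (adjusted p = 0.446).

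Interferon induction and signaling was read from a list of interferons, sensors, kinases, receptors, transcription factors and negative regulators. The list thus holds genes that are themselves ISGs, such as *Irf7*, and is not only upstream of the members. Of its 35 genes with a row, 24 were tested. Of these 19 were higher and 0 lower, and the median of their log2 fold changes was 0.66. Over all genes tested 18.1% were higher and 19% lower, which also stands beside the lists that follow. *Ifnb1*, which encodes interferon beta, had 19.2, 13.1 and 15.4 CPM in KO and 8.86, 5.91 and 4.32 CPM in WT libraries. The groups did not overlap, and the log2 fold change was 1.32 ± 0.23 (adjusted p = 0.00200). Of the interferon alpha genes most had hardly any counts, and 9 listed genes had 3 counts or fewer in every library. *Ifna2* rose (1.37 ± 0.35), at 0.514 ± 0.0834 against 0.195 ± 0.0818 CPM. Of the receptor chains, *Ifnar2* rose by 0.23 ± 0.06 on the log2 scale and *Ifnar1*, at 0.19 ± 0.07, did not pass (adjusted p = 0.0565), but passed in the fit blocked by replicate number (adjusted p = 0.00222).

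Of the transcription factors downstream of the receptor, *Stat2* rose by 0.65 ± 0.09 and *Irf9* by 0.28 ± 0.06 on the log2 scale. *Irf7*, which amplifies type I interferon production and is itself an ISG, rose by 1.53 ± 0.13, and *Irf1* by 0.64 ± 0.07. *Irf3*, which is activated by phosphorylation rather than by its own transcription, had a log2 fold change of -0.05 ± 0.07 and did not pass (adjusted p = 0.636). *Tmem173*, which encodes STING, rose by 0.35 ± 0.08. Negative regulators of the pathway were also higher, with *Socs3* at 1.44 ± 0.12 and *Usp18* at 1.27 ± 0.15. With library totals in place of TMM factors 14 genes of the list were higher and 1 lower. *Ifnar2*, *Irf9* and *Tmem173* then no longer passed, and *Irf3* was the gene called lower.

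Nearly all other antiviral ISGs rose too. Of 51 tested, 49 were higher and 0 lower (48 and 0 with library totals), and the median of their log2 fold changes was 0.96, in a range from 0.12 to 2.55. The greatest rises were those of *Ifi44* (2.55 ± 0.35), *Iigp1* (2.37 ± 0.30) and *Ch25h* (2.26 ± 0.21), which encodes cholesterol 25-hydroxylase. *Isg15*, a ubiquitin-like modifier, rose by 1.16 ± 0.10, *Mx1*, a dynamin-like GTPase, by 1.12 ± 0.14, and *Rsad2*, which encodes viperin, by 0.98 ± 0.14. *Oas2*, a synthetase that activates RNase L, rose by 0.95 ± 0.09 and *Oasl1* by 1.63 ± 0.15. Set in this list by fold change, *Ifit1bl1* was exceeded by 6 of the 51 genes, *Ifit3b* by 13, *Ifit2* by 15, *Ifit3* by 20, *Ifit1bl2* by 41 and *Ifit1* by 46. The 4 members with a log2 fold change over 1 thus lay above the median of the list, and *Ifit1* and *Ifit1bl2* below it.

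IFIT1 acts on mRNA caps, and the genes of the cap and of the translation factors it meets were measured beside it. Of 6 tested cap enzyme genes, 1 was higher and 1 lower (2 and 2 in the blocked fit). *Cmtr1*, the methyltransferase whose mark on the first nucleotide shields host mRNA from IFIT1 and which is itself interferon-inducible, rose by 0.30 ± 0.10 (adjusted p = 0.0383), at 17.1 ± 1.35 against 13.9 ± 1.57 CPM. *Cmtr2*, which methylates the second nucleotide, had a log2 fold change of -0.34 ± 0.10 (adjusted p = 0.0226). Of 14 eIF3 subunit genes 2 were higher and 1 lower (3 and 3 in the blocked fit), with a median of 0.02. *Eif3f* (0.22 ± 0.07) and *Eif3h* (0.22 ± 0.06) were higher and *Eif3a* (-0.25 ± 0.07) was lower. Of 10 tested genes of eIF4F and its inhibitors 2 were higher and 2 lower. *Eif4e3* (0.64 ± 0.10) and *Eif4g3* (0.39 ± 0.10) rose, and *Eif4ebp2* (-0.62 ± 0.07) and *Eif4a1* (-0.24 ± 0.07) fell. In the blocked fit *Eif4e* was also called higher (adjusted p = 0.0255) and *Eif4ebp1* also lower (adjusted p = 0.0319). The counts of calls depended on the scaling. With library totals 0 cap enzyme genes were higher and 4 lower, 0 eIF3 genes higher and 6 lower, and 1 gene of the eIF4F list higher and 7 lower. Upper-quartile scaling gave 0 eIF3 genes higher and 2 lower. *Cmtr1* did not pass under either of these scalings. Single libraries mattered as well. Without KO library 1, KO library 2 or WT library 2, 0 cap enzyme genes were called, without KO library 3 0 were lower and without WT library 3 0 were higher. For eIF3, 0 genes were called without KO library 2 or WT library 3, and 0 were higher and 2 lower without KO library 3. In the eIF4F list 1 gene was lower without KO library 1, KO library 2, WT library 2 or WT library 3, and 1 was higher without WT library 2.

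Among 8 cytosolic sensors of RNA and their adaptor, 7 were higher and 1 lower, and 6 of these genes are also in the ISG list. *Zbp1*, a sensor of Z-form nucleic acid, rose by 1.62 ± 0.20, *Ifih1*, which encodes MDA5, by 1.01 ± 0.14 and *Ddx58*, which encodes RIG-I, by 0.96 ± 0.14. The exception was *Mavs*, the adaptor of RIG-I and MDA5, which had 31.8, 32.9 and 34.0 CPM in KO and 41.1, 45.8 and 47.9 CPM in WT libraries. All KO libraries were below all WT libraries, and the log2 fold change was -0.45 ± 0.07 (adjusted p = 0.00120).

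**Figure D4:**
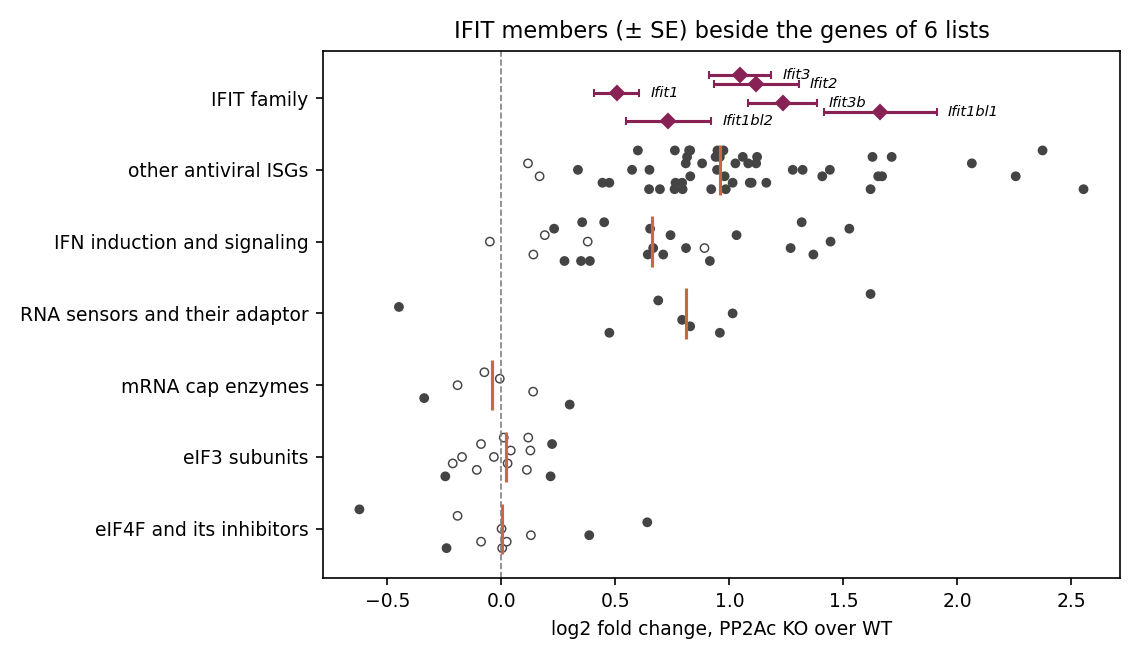
Log2 fold change of PP2Ac KO over WT for the 6 IFIT members with SE bars, above the tested genes of 6 lists, where filled points have an adjusted p under 0.05 and the vertical bars are list medians. The members lie between 0.51 and 1.66, within the range of the other antiviral ISGs, while the cap enzyme, eIF3 and eIF4F lists have medians near 0.

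The genes beside the cluster were mixed in direction. Of the 10 nearest protein-coding neighbours, 5 on each side, 9 were tested. Of these 2 were higher, 3 lower and 4 did not pass. In the fit blocked by replicate number 3 were higher, 4 lower and 2 did not pass, since *Fas* was then called higher (adjusted p = 0.00536) and *Lipa* lower (adjusted p = 0.00262). *Lipa*, which encodes lysosomal acid lipase and lies 23.2 kb from *Ifit2*, had a log2 fold change of -0.21 ± 0.09 (adjusted p = 0.106). *Ch25h*, 75.5 kb away and also on the ISG list, rose by 2.26 ± 0.21. *Slc16a12*, 18.4 kb from *Ifit1* on the other side, was not tested because of its low counts. Further out, *Fas* (0.45 ± 0.17, adjusted p = 0.0621), *Stambpl1* (-0.04 ± 0.07) and *Rpp30* (0.10 ± 0.09) did not pass. *Acta2*, which encodes smooth muscle actin (-1.97 ± 0.13), *Pank1*, a kinase of coenzyme A synthesis (-0.80 ± 0.13), and *Kif20b*, a mitotic kinesin (-1.23 ± 0.14), fell. *Htr7*, a serotonin receptor gene, rose (1.52 ± 0.33) from under 1 CPM in both groups. With library totals in place of TMM factors *Lipa* was called lower. The pseudogene *AC016791.2* between the members had no counts.

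**Figure D5:**
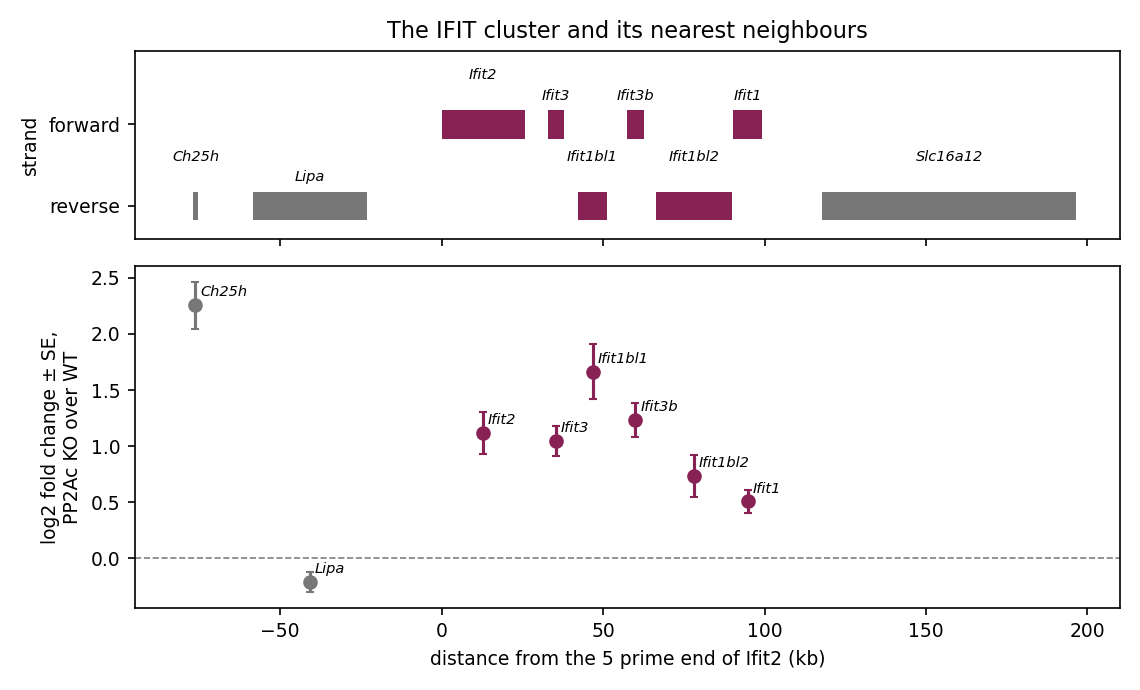
The IFIT cluster and its nearest neighbours by distance from the 5′ end of Ifit2 in kb, with gene bodies by strand above and log2 fold changes with SE bars below (members in purple, neighbours in grey). All 6 members lie above 0, Ifit1bl1 near the middle of the cluster is the highest of them, and Lipa lies at -0.21.

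Markers of other cells that a bone marrow culture could hold were measured beside these results, and their part in the IFIT values was not tested. Of 6 tested fibroblast markers, all 6 were lower in KO, and their summed level was 24.9 to 37.4 CPM in KO and 80.8 to 125 CPM in WT libraries, far below that of the macrophage markers (7918 to 9465 CPM over all libraries). Of 4 tested plasmacytoid dendritic cell markers 2 were higher (1 without KO library 2, KO library 3, WT library 2 or WT library 3). *Tcf4*, which macrophages also express, made up most of their sum of 448 to 531 CPM in KO and 250.1 to 353 CPM in WT libraries, and the defining marker *Siglech* stayed under 1 CPM, at 0.599 ± 0.10 against 0.301 ± 0.0357 CPM. Of 3 tested conventional dendritic cell markers 2 were higher, *Dpp4* and *Clec9a* (1 without KO library 1, WT library 2 or WT library 3), with a summed level of 2.54 to 5.61 CPM in KO and 1.03 to 1.85 CPM in WT libraries. The markers of T or NK cells, B cells and neutrophils were near 0, and *Cd8a* and *Ly6g* had no counts.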

How the data were processed

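The authors deposited 1 table of raw counts per gene symbol for the 6 BMDM libraries (poly(A) RNA, directional library kit, paired-end reads). The submitters' processing notes name fastp 0.20.0, STAR 2.7.1a, HTSeq 0.11.2, kallisto 0.46.1, edgeR 3.34.0, limma 3.48.3 and the builds mm10 and GRCm38, with no roles. The annotation release and the strand setting are not given in the sources used here, so reads of overlapping genes and of close copies may be split or lost.

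Genes were kept by filterByExpr (minimum count 10, minimum total 15), scaled by TMM and tested for genotype with edgeR 4.0.16 (R 4.3.3, glmQLFit and glmQLFTest), and p-values were adjusted over all 13680 of them (Benjamini-Hochberg). SE is the log2 fold change over the square root of F. A gene was called higher or lower at an adjusted p under 0.05. Member ratios used counts per kb of exon (GENCODE M21, prior 0.5) and an exact permutation test. The tests were tried on simulated counts. Library totals were 35257156 to 47390899 counts, the biological coefficient of variation was 8.77%, and 3 counts, which cover counting error only, are worth 0.0604 to 0.0909 CPM.

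Both genotypes carry the replicate numbers 1, 2 and 3 in the labels. The labels do not say what the numbers mean. Deviations of same-numbered libraries from their group means had Pearson's r of 0.289, 0.147 and 0.337 over 13680 genes. The r of libraries with unlike numbers was not computed, so pairing was taken as possible only. The main fit used genotype alone, and the block by replicate number is an alternative. Replicates of a genotype differed by more than sampling noise (chi-square per degree of freedom 9.28 to 45.5).

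The members, gene lists and tests were chosen with earlier results of these data known. The text names all members, Ppp2ca, the 3 greatest rises and falls of each pathway list, pathway genes fixed by name, the 5 genes most like the members, the neighbours and markers. A pathway gene fixed by name is not reported here. Alternatives were RLE, upper-quartile and no scaling, other count filters, DESeq2 1.42.0, limma-voom (limma 3.58.1), a replicate block, and each library left out.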

Additional observations from a re-analysis of the deposited data

How the results depend on the processing

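All 89 recomputed member fold changes kept their direction and stayed under an adjusted p of 0.05, under 3 other scalings, 2 other filters, DESeq2, limma-voom, the replicate block, each library left out and summed counts of close copies. In this number the value from summed counts is entered again for each member of the sum. Leaving aside the summed counts, the range was 0.29 to 0.62 for Ifit1, 0.91 to 1.40 for Ifit2, 0.84 to 1.24 for Ifit3, 1.02 to 1.44 for Ifit3b, 1.44 to 2.03 for Ifit1bl1 and 0.52 to 0.98 for Ifit1bl2, whose adjusted p reached 0.0489. Summed counts gave 0.72 for Ifit1, Ifit1bl1 and Ifit1bl2 together and 1.09 for Ifit3 and Ifit3b. The stricter rule called 2 members with library totals only and 2 to 4 with 1 library left out. With library totals only, 1503 genes were higher and 6125 lower, and 19 genes of the 6 pathway lists were lower in place of 5, as the median of all genes moved to -0.24. With the replicate block 9 genes of the lists were lower, and with 1 library left out 2 to 6. The block called 6 members higher, with log2 fold changes of 0.51 for Ifit1 to 1.73 for Ifit1bl1, and changed no member's call. Of the 15 member ratios, 11 did not overlap with a prior of 2 counts and 11 to 12 with 1 library left out. Leaving a library out can only keep or raise that number, so it is no check of the ratios. For 13 ratios the 3 differences within a replicate number had 1 sign. The share over all pairs of tested genes was not computed at these settings. Ifit1bl2, at 88 to 206 counts per library, is the member that depth limits most.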
